A study of Mus musculus with 31 samples.

Results

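The let-7 passenger arms described here are mmu-let-7a-1-3p, mmu-let-7b-3p, mmu-let-7d-3p and mmu-let-7f-1-3p, the 3p strands of 4 mouse let-7 precursor hairpins, named here without the species prefix. They were chosen by name: every probe whose entry in the array's own annotation is one of these 4 names was taken, which gave 16 probes (4 per miRNA, 5 spots per probe) of 1857 probes for 650 mouse miRNA entries. The lungs came from female BALB/c mice, an inbred strain, kept in cigarette smoke or in room air for 4, 6, 8 or 12 weeks, which the submitters use to model chronic obstructive pulmonary disease. All groups share strain, sex and tissue, and no allele or other agent is named for any of them. The 8 groups hold 4 arrays each, except smoke at 12 weeks with 3, so 15 smoke and 16 control arrays were compared. The sources used here give neither mouse age nor smoke dose, nor do they say whether the arrays of a group stand for separate animals. All p-values therefore weigh a difference against the spread of these arrays alone, and that spread may be technical.

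A let-7 hairpin is cut by Drosha and then Dicer into a duplex of 2 strands. One strand, for let-7 the 5p or guide strand, is kept by an Argonaute protein and pairs with target messenger RNAs through its seed, bases 2 to 8, while the other strand, the passenger, is mostly degraded. The let-7 guides are abundant in differentiated tissue, the adult lung included, and are known for restraining growth-related genes. A passenger strand has a seed of its own, so it would pair with other targets than its guide.

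The 4 passenger strands are shown first because their near identity bears on how far an array can tell them apart. All are 22 bases long, and the capitals mark the seed. Sequences and positions are from RefSeq (GRCm38.p6), where all 4 members were found.

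let-7a-1-3p: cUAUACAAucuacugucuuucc
let-7f-1-3p: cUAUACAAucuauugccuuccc
let-7b-3p: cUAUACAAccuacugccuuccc
let-7d-3p: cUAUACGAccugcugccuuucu

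Among the members, let-7a-1-3p, let-7b-3p and let-7f-1-3p share the seed UAUACAA, which 5 of the 1738 mature entries in the RefSeq table have (0.288%), the others being let-7c-2-3p and miR-98-3p. The seed of let-7d-3p differs from it by 1 base and is found in no other entry of the table. Over the full length, let-7b-3p and let-7f-1-3p differ at 2 bases, let-7a-1-3p differs from each of them at 3, and let-7d-3p differs from the other members at 4 to 6. The sequence of let-7c-2-3p is that of let-7a-1-3p base for base, and the array has no entry under that name, so the signal reported as let-7a-1-3p cannot be told apart from let-7c-2-3p.

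The guide strands cut from the same hairpins are shown because each member is compared with its own guide later. They share the seed GAGGUAG, which is that of 13 of the 1738 mature entries (0.748%).

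let-7a-5p: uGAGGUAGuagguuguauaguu
let-7f-5p: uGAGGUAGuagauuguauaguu
let-7b-5p: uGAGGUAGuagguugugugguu
let-7d-5p: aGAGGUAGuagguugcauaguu

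The hairpin of Mirlet7a-1 shows how both strands leave 1 precursor. It is 94 bases long (chr13:48538179-48538272, minus strand), the capitals mark let-7a-5p (bases 13 to 34) and let-7a-1-3p (bases 64 to 85), and 29 bases lie between them.

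Mirlet7a-1: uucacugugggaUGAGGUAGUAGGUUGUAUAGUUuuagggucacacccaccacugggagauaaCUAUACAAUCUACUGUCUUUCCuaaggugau

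All but let-7b-3p come from 1 cluster. On the minus strand of chromosome 13, let-7a-1-3p lies at chr13:48538188-48538209, let-7f-1-3p at chr13:48537833-48537854 and let-7d-3p at chr13:48536024-48536045, and their 3 hairpins span 2261 bases that no other gene of the RefSeq table contains. let-7b-3p lies on the plus strand at chr15:85707379-85707400, 1 of 2 hairpins (with Mirlet7c-2) in a span of 801 bases within the long non-coding RNA gene Lncppara. RNA from Mirlet7c-2 would therefore be counted with the chromosome 13 member let-7a-1-3p.

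Between smoke and room air, 1 of the 4 members changed, beside 27.5% of all miRNAs tested. Over the 4 durations let-7a-1-3p fell to 0.827 times its control level, a call lost in 2 of 14 other settings. In 14 of 15 pairs of smoke and control arrays on the same slide it was lower in smoke. At 4 weeks the pairs on slides 2 and 3 differed by only -0.0019 and -0.0053 on the log2 scale. No difference of let-7d-3p, let-7b-3p or let-7f-1-3p passed the test, at any duration or averaged. The members also differed in how far they could be measured at all: let-7a-1-3p and let-7d-3p were above background on every array, let-7b-3p and let-7f-1-3p on some.

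The facts of the whole series that bear on these values are few. The 31 arrays lie on 4 slides. Smoke and control of each duration stand side by side on the slides, with the 12 weeks smoke array missing from 1 of them, and the 2 treatments always take different positions, so position and smoke cannot be told apart. Each duration likewise keeps its own positions on every slide, so position and duration cannot be told apart either. The brightness of an array, taken as the 75th percentile of signal over the 385 probes detected on every array, ran from 1018 to 3725, a 3.66-fold range. Group means of brightness were nearest at 4 weeks, 1872 in control and 1787 in smoke, and farthest apart at 8 weeks, 2692 against 1516. Of 650 miRNAs 273 were tested and 207 were detected on every array. Markers of the lung's cell types were present: the 5 epithelial markers (the miR-200 family), both endothelial markers (miR-126) and the 4 leukocyte markers were detected on every array, and so were both red cell markers (miR-451 and miR-144-3p). Of the 4 striated muscle markers, miR-133a-3p, miR-133b-3p and miR-1a-3p were detected on every array and miR-206-3p on 4 of 31, and liver miR-122-5p was detected on 11 of 31.

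In a bulk lung sample, fewer cells of a type and less RNA per cell cannot be told apart, and some cell type markers moved with smoke. Averaged over the durations, 2 of 4 leukocyte markers fell (both arms of the single hairpin miR-142, each by 0.65 on the log2 scale), 1 of 2 endothelial markers fell (miR-126-3p by 0.13) and 1 of 5 epithelial markers rose (miR-429-3p by 0.27), beside 12.1% of all miRNAs called lower and 15.4% higher. The other leukocyte markers had opposite signs and did not pass (limma), miR-223-3p with 0.34 (adjusted p = 0.0740) and miR-150-5p with -0.30 (adjusted p = 0.0699). No red cell, striated muscle or liver marker passed, and miR-206-3p was too rarely detected to be tested. The summed leukocyte level, in multiples of the 75th percentile, was 6.97 to 10.2 on control and 4.98 to 10.65 on smoke arrays. For endothelium the sums were 27.2 to 37.0 and 26.2 to 32.4, and for epithelium 5.89 to 7.41 and 6.23 to 8.44. The part of these cell types in the fall of let-7a-1-3p was not tested.

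Detection was counted before any comparison of levels. A probe was called detected when at least 50% of its spots were marked well above background by the scanner software, and a miRNA when any of its probes was. By that measure let-7a-1-3p and let-7d-3p were detected on 31 of 31 arrays, let-7b-3p on 23 and let-7f-1-3p on 20. The software's own mark per miRNA is more lenient and gave 31, 31, 30 and 30. The 3 further let-7 passenger strands on the array, let-7c-1-3p, let-7g-3p and let-7i-3p, were detected on 0 of 31 arrays, while all 9 guide strands were detected on all 31.

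Between smoke and control, detection of the dim members was lower on smoke arrays in the total over durations, with no test of the difference. let-7b-3p was detected on 14 of 16 control and 9 of 15 smoke arrays, and let-7f-1-3p on 12 of 16 and 8 of 15. At 8 weeks let-7f-1-3p was detected on 2 of 4 control and 0 of 4 smoke arrays, and let-7b-3p on 4 of 4 and 2 of 4. At 4 weeks let-7f-1-3p went the other way, with 3 of 4 control and 4 of 4 smoke arrays. The smoke arrays at 8 weeks were also the dimmer ones, with 429 to 460 of all probes detected against 482 to 576 on the control arrays. The part of array brightness in the counts of the members was not tested.

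The probes of let-7a-1-3p and those of let-7d-3p gave unlike signals. For let-7a-1-3p the median signal over the arrays was 59.7 intensity units for the brightest probe and 8.20, 4.41 and 1.85 for the other 3, and only the brightest was detected throughout (31 arrays, against 1, 0 and 0). The probes of let-7d-3p fell off less steeply, with medians of 169, 89.8, 17.3 and 2.01 and detection on 31, 31, 16 and 0 arrays. The 4 probes of let-7b-3p had nearly equal medians, 16.8 to 17.6, and so had those of let-7f-1-3p, 15.7 to 16.97. Every result for let-7a-1-3p thus rests on 1 probe. No spot of a member was saturated.

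Levels are given below as log2 of the brightest probe's signal after division by the array's 75th percentile, so that 0 is the 75th percentile of that array. Values below -6.74, the typical level of the dimmest detected probe, were set to that floor. let-7b-3p lay at the floor on 13 of 31 arrays and let-7f-1-3p on 15, let-7a-1-3p and let-7d-3p on 0. Probes bind with different strength, so these levels order samples and not miRNAs.

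**Figure D1:**
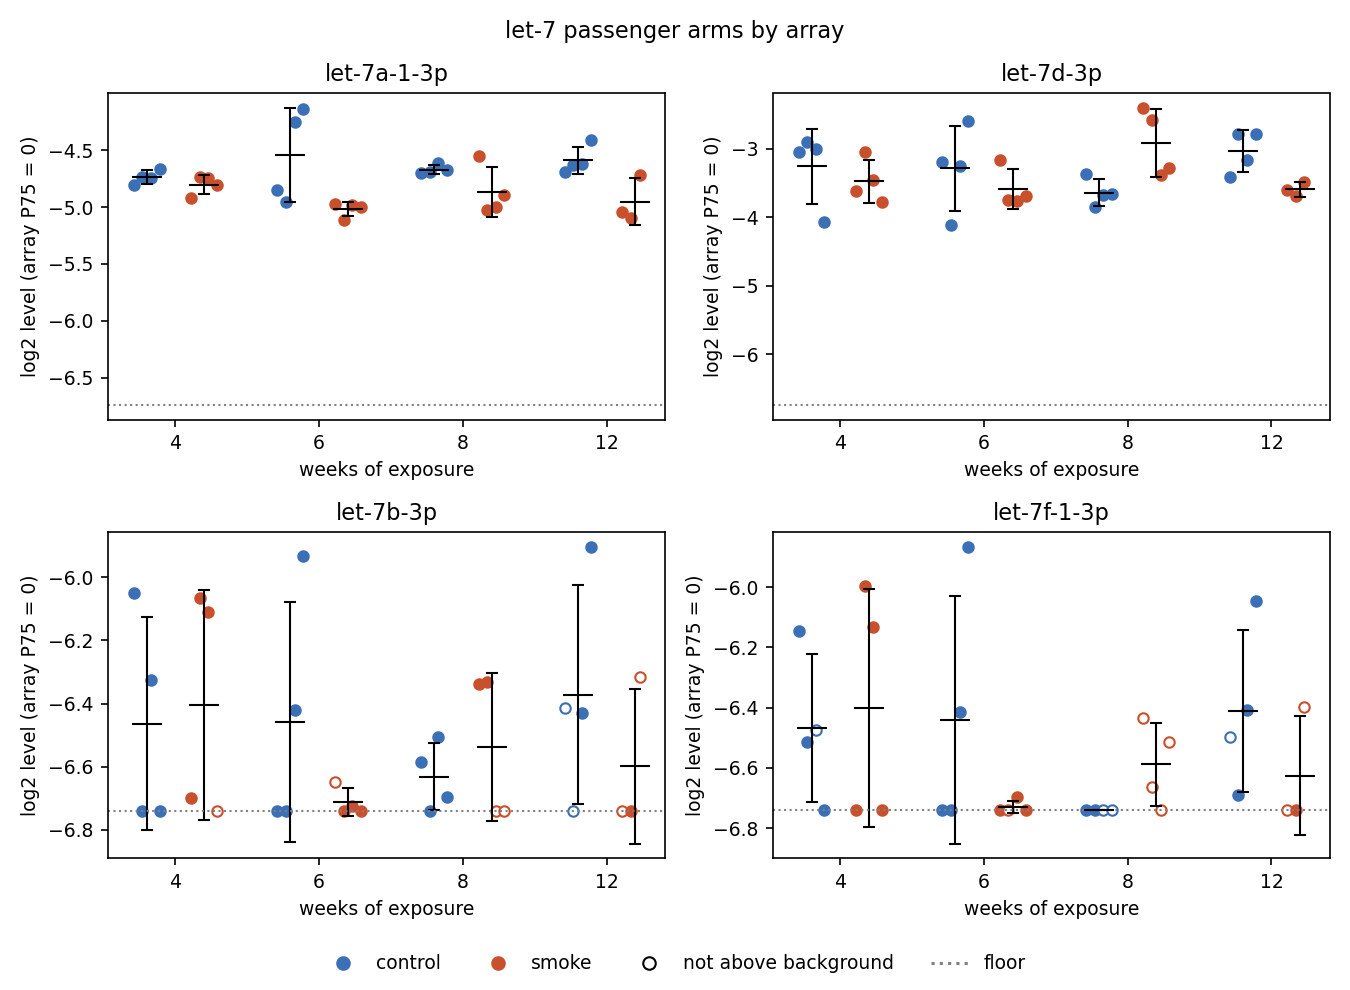
Log2 level of each passenger arm (y axis, array 75th percentile = 0) on every array by weeks of exposure (x axis), with the mean and SD of each group; open circles are arrays on which no probe of the miRNA was above background, and the dotted line is the floor. At 6 and at 12 weeks every smoke array of let-7a-1-3p lies below every control array, and many arrays of let-7b-3p and let-7f-1-3p lie on the floor.

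The level of let-7a-1-3p was nearly the same in smoke and control after 4 weeks. Control arrays 1 to 4 had -4.81, -4.73, -4.74 and -4.66, and smoke arrays 1 to 4 had -4.92, -4.73, -4.75 and -4.81. The groups overlapped, and the difference was -0.07 ± 0.13 (SE, adjusted p = 0.726, limma).

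After 6 weeks let-7a-1-3p was lower in smoke. The control arrays had -4.85, -4.95, -4.25 and -4.13 and the smoke arrays -4.97, -5.11, -4.98 and -5.00. All 4 smoke arrays lay below all 4 control arrays, though control arrays 1 and 2 were close to the smoke values and control arrays 3 and 4 were far above them. The difference was -0.47 ± 0.13 (SE, 4 against 4 arrays, adjusted p = 0.0240, limma), 0.722 times the control level. It was the only fall called at 6 weeks among the 273 miRNAs tested (0.366%), while 7.69% were called higher.

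That call depended on single arrays. Without control array 3 or 4 the difference was -0.37 (adjusted p = 0.118) or -0.33 (0.123), and without smoke array 2 or 4 it was -0.44 (0.0734) or -0.48 (0.0515), all by limma. Control arrays 3 and 4 were the dimmest of their group, with 75th percentiles of 1446 and 1018 against 2398 and 3725 for arrays 1 and 2. With array brightness as a covariate the difference was -0.48 (limma, adjusted p = 0.000784). The call was also lost when the 8 arrays of 6 weeks were fitted alone (limma, adjusted p = 0.224), without the detection filter (0.0702), with the higher floor (-0.27, 0.0805), without scaling (-0.48, 0.945) and with normexp background correction (-0.25).

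After 8 weeks the difference in let-7a-1-3p was -0.20 ± 0.13 and did not pass (limma, adjusted p = 0.390). The control arrays had -4.70, -4.69, -4.61 and -4.67, and the smoke arrays -4.55, -5.03, -5.00 and -4.90. Smoke array 1 was the highest of the 8, and the other 3 smoke arrays were below every control array. On the unscaled signal the groups were far apart, 91.4 to 134 in control and 47.8 to 53.6 in smoke, but the median miRNA was also lower by 0.86 on that scale.

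After 12 weeks the 2 groups again did not overlap. The control arrays had -4.69, -4.63, -4.62 and -4.41 and the 3 smoke arrays -5.04, -5.09 and -4.72. The difference was -0.36 ± 0.14 and did not pass after adjustment (adjusted p = 0.107, limma). Separation of this kind was common at 12 weeks: 25.3% of the miRNAs tested had every smoke array below every control array, against 3.3% at 6 weeks.

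Averaged over the durations, let-7a-1-3p was at -4.63 in control and -4.91 in smoke, a difference of -0.27 ± 0.068 (SE, 16 control and 15 smoke arrays, 95% interval -0.41 to -0.13, adjusted p = 0.00267, limma). Of the 273 miRNAs tested, 27.5% were called, 12.1% lower and 15.4% higher, so a fall of this kind was not rare in the series, and by size let-7a-1-3p had rank 26 from the lowest difference. The means within slides 1 to 4 were -0.12, -0.24, -0.36 and -0.41, all negative. Leaving out any 1 of the 31 arrays kept the call, with differences from -0.31 to -0.24. The call was lost under normexp background correction of the median spot signals (-0.34, adjusted p = 0.753) and with a floor 4 times higher (-0.11, adjusted p = 0.104). That higher floor lies at -4.74, and 16 of the 31 levels of let-7a-1-3p are at or below it.

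The ranking of the 8 groups for let-7a-1-3p put the control groups first. From the highest mean the order was control at 6, 12, 8 and 4 weeks (-4.54, -4.59, -4.67 and -4.74), followed by smoke at 4, 8, 12 and 6 weeks (-4.80, -4.87, -4.95 and -5.02). Neighbouring means in that order differed by 0.044 to 0.084, and 6 of the 7 gaps were smaller than the larger SD of the 2 neighbours, the exception being control at 8 and at 4 weeks. Neither the control groups (limma F test, adjusted p = 0.594, beside 6.96% of miRNAs called) nor the smoke groups (0.589, beside 3.3%) were found to differ among durations, and the smoke effect was not found to differ between durations (0.270).

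The second member above background everywhere, let-7d-3p, is cut from the same cluster as let-7a-1-3p but varied more between arrays. After 4 weeks control arrays 1 to 4 had -3.05, -2.89, -3.001 and -4.08 and smoke arrays -3.61, -3.05, -3.45 and -3.78. Control array 4 lay far below the other 3, the groups overlapped, and the difference was -0.22 ± 0.28 (limma, adjusted p = 0.544). After 6 weeks the controls had -3.19, -4.11, -3.26 and -2.59 and the smoke arrays -3.16, -3.75, -3.76 and -3.69, which overlapped as well (-0.31 ± 0.28, adjusted p = 0.615).

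At 8 weeks let-7d-3p lay higher in smoke. The control arrays had -3.37, -3.85, -3.67 and -3.67 and the smoke arrays -2.41, -2.57, -3.39 and -3.28. Smoke arrays 1 and 2 were well above all controls, and smoke array 3 just below control array 1, so the groups overlapped by 1 array. The difference of 0.73 ± 0.28 did not pass after adjustment (adjusted p = 0.0960, limma). It passed when arrays were scaled by all probes (0.75, adjusted p = 0.0159, limma).

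The unscaled signals of let-7d-3p at 8 weeks differed little between the groups. They were 230, 241, 203 and 184 on the control arrays and 231, 262, 161 and 164 on the smoke arrays, means of 214 ± 26.0 and 204 ± 50.2 (SD, n = 4 each). Without scaling the difference was -0.09 (limma, adjusted p = 0.683), and with array brightness as a covariate it was 0.15 (adjusted p = 0.592). The 75th percentile by which these signals are divided was 2337 to 3472 on the control and 1229 to 1681 on the smoke arrays.

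After 12 weeks let-7d-3p lay lower in smoke, and the groups did not overlap. The control arrays had -3.41, -2.78, -3.16 and -2.79 and the smoke arrays -3.60, -3.69 and -3.49. The difference was -0.56 ± 0.30 (limma, adjusted p = 0.249), beside the 25.3% of miRNAs with the same separation. Averaged over durations it was -0.09 ± 0.14 (95% interval -0.38 to 0.20, adjusted p = 0.685), with 8 of 15 slide pairs negative.

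The smoke effect on let-7d-3p had opposite signs at 8 and 12 weeks, but the test of a difference between durations did not pass (limma F = 3.93, adjusted p = 0.0944, beside 6.96% of miRNAs called). It did without control array 2 of 6 weeks (limma, adjusted p = 0.0472), when arrays were scaled by all probes (0.0473) and in the authors' deposited table (0.0420). That table holds the third brightest probe of let-7d-3p, detected on 16 of 31 arrays. The second probe of let-7d-3p, itself detected on every array, gave 0.70 at 8 weeks, -0.62 at 12 weeks and -0.12 averaged. By mean level the order of the groups was smoke at 8 weeks (-2.91), control at 12, 4 and 6 weeks (-3.04, -3.25 and -3.29), smoke at 4 and 6 weeks (-3.47 and -3.59), smoke at 12 weeks (-3.59) and control at 8 weeks (-3.64), and all 7 gaps between neighbours were smaller than the larger SD of the pair.

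**Figure D2:**
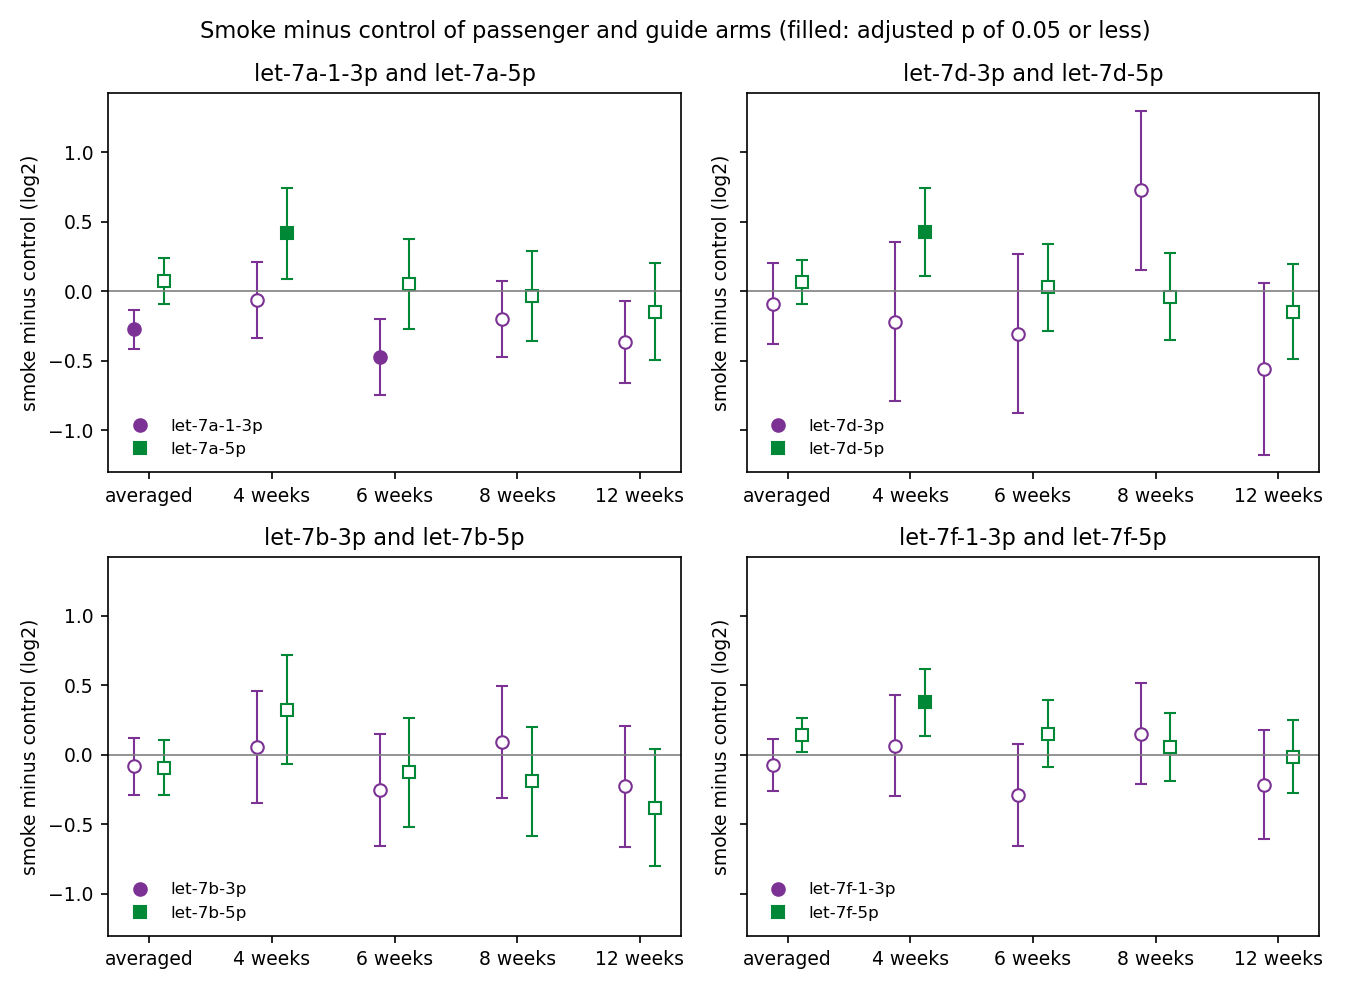
Smoke minus control on the log2 scale (y axis) with 95% intervals, averaged and at each duration (x axis), for each passenger arm (circles) and its guide arm (squares); filled symbols have an adjusted p of 0.05 or less. let-7a-1-3p is filled for the average (-0.27) and 6 weeks (-0.47), and the guides let-7a-5p, let-7d-5p and let-7f-5p are filled at 4 weeks. The point of let-7f-1-3p at 8 weeks comes from values at the floor or not above background.

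The 2 dim members, let-7b-3p and let-7f-1-3p, could be followed mainly by their signals. The brightest probe of let-7b-3p gave 16.6 to 20.8 intensity units on control and 17.9 to 23.5 on smoke arrays at 4 weeks, 16.7 to 18.7 and 15.1 to 18.5 at 6 weeks, and 14.6 to 17.7 and 13.03 to 16.9 at 12 weeks. At 8 weeks the control arrays had 24.8, 29.6, 28.4 and 22.5 and the smoke arrays 15.2, 19.3, 10.2 and 14.8. That was the only duration at which the unscaled signals of let-7b-3p did not overlap, and control at 8 weeks was also the brightest group of arrays.

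After scaling the 8 weeks difference in let-7b-3p lay on the other side. The control levels were -6.58, -6.74, -6.51 and -6.70 and the smoke levels -6.34, -6.33, -6.74 and -6.74, a difference of 0.09 ± 0.20 (limma, adjusted p = 0.847) against -0.68 without scaling (adjusted p = 0.000212), where the median miRNA was at -0.86. The direction of let-7b-3p at 8 weeks thus turned with the scaling, and it was also negative in the scanner's summed signal (-0.58) and with array brightness as a covariate (-0.35). It turned with the probe as well: the second brightest probe of let-7b-3p gave -0.03 at 8 weeks under the same scaling, and the authors' deposited table, which holds that probe, gave -0.031. At 4, 6 and 12 weeks the scaled differences were 0.06, -0.25 and -0.23, and the average was -0.08 ± 0.0999 (95% interval -0.29 to 0.12, adjusted p = 0.569).

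let-7f-1-3p had the flattest signals of the 4. Over all 31 arrays its brightest probe gave 9.53 to 20.1 intensity units with a median of 16.97, and group means lay between 14.1 (smoke, 8 weeks) and 18.3 (smoke and control, 4 weeks). At 8 weeks the control arrays had 19.0, 19.1, 18.1 and 16.1 and the smoke arrays 14.2, 15.4, 9.53 and 17.5, and these overlapped. All 4 control levels of 8 weeks lay at the floor once scaled, and the smoke mean was -6.59 with 0 of 4 smoke arrays above background, so no fold is given there.

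At 6 weeks let-7f-1-3p lay at the floor on 3 of 4 smoke arrays. The control levels were -6.74, -6.74, -6.41 and -5.87 and the smoke levels -6.74, -6.74, -6.70 and -6.74, which overlapped at the floor (-0.29 ± 0.18, limma, adjusted p = 0.404). The differences at 4 and 12 weeks were 0.07 and -0.22 and the average over the 4 durations was -0.07 ± 0.090 (95% interval -0.26 to 0.11, adjusted p = 0.578). With 13 and 15 values at the floor, the intervals of both dim members describe floored levels.

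Side by side, the 4 members gave 0 rises and 1 fall for the average, with a median difference of -0.09, beside a median of -0.0048 and 15.4% rises and 12.1% falls over all 273 miRNAs. All 4 averaged differences were negative, as were 144 of the 273 over all miRNAs tested. Those of let-7b-3p, let-7d-3p and let-7f-1-3p were smaller than their SEs. At 4 and 8 weeks 0 of 4 members passed in either direction (39.6% and 11% of all miRNAs did), at 6 weeks 1 of 4 (8.06%), and at 12 weeks 0 of 4 (9.52%). At an unadjusted p of 0.05, 0 of 4 passed at 4 weeks, beside 142 of all 273 miRNAs. At 6, 8 and 12 weeks 1 of 4 passed each time, beside 54, 65 and 70 of 273.

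Of the guide strands, 7 of 9 were not called for the average. Averaged over durations 2 of 9 rose, let-7i-5p by 0.19 ± 0.043 (adjusted p = 0.00124) and miR-98-5p by 0.16 ± 0.058 (adjusted p = 0.0436), 0 fell, and the median was 0.07 (limma). At 4 weeks 5 of 9 rose, beside 28.2% of all miRNAs, among them let-7a-5p (0.42), let-7d-5p (0.43) and let-7f-5p (0.38). The median at 4 weeks was 0.38 for the guides and 0.17 for all miRNAs tested. The smoke arrays were widely spread there, from 3.94 to 4.98 for let-7a-5p, against 3.78 to 4.12 on control arrays. Without smoke arrays 2 and 3, calls over all miRNAs at 4 weeks fell from 108 to 17. At 6 weeks 1 of 9 rose, let-7i-5p by 0.31 (adjusted p = 0.0177). At 8 and 12 weeks 0 of 9 passed, with 2 and 3 positive differences. At 12 weeks the median was -0.15 for the guides and -0.29 for the passengers, beside -0.075 for all miRNAs tested. The guides of the 4 members did not pass for the average: let-7a-5p 0.07, let-7b-5p -0.09, let-7d-5p 0.07 and let-7f-5p 0.14.

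Whether a passenger strand moved apart from its own guide was tested directly on the within-array difference, log2 of the 3p minus log2 of the 5p level, in which the scaling of the array cancels except for values at the floor. The smoke effect was averaged over durations and the labels permuted within durations, with 100000 resamples (two-sided permutation test, Benjamini-Hochberg over the 4 pairs). let-7a-1-3p fell relative to let-7a-5p by 0.35 on the log2 scale (p = 2e-05, adjusted p = 8e-05), and the difference was lower in smoke in 15 of 15 slide pairs. let-7a-5p is also made from Mirlet7a-2, so its signal is not that of 1 hairpin.

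The arm difference of let-7a-1 is given relative to its mean over the 31 arrays. At 4 weeks it was -0.05, 0.09, 0.23 and 0.43 on control arrays and -0.06, -0.85, -0.45 and 0.12 on smoke arrays. At 6 weeks the control arrays had 0.10, 0.09, 0.37 and 0.39 and the smoke arrays -0.31, -0.32, -0.22 and -0.28. The groups overlapped at 4 weeks, where smoke arrays 2 and 3 lay far below the others, and were wide apart at 6 weeks. On smoke arrays 2 and 3 of 4 weeks let-7a-1-3p itself lay at -4.73 and -4.75, within the range of the control arrays.

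The later durations showed a smaller gap. At 8 weeks the control arrays had 0.11, 0.13, 0.21 and 0.24 and the smoke arrays 0.08, 0.00057, 0.14 and -0.18. At 12 weeks the control arrays had 0.07, 0.03, 0.06 and 0.20 and the smoke arrays -0.16, -0.24 and 0.02. Smoke minus control was thus -0.48, -0.52, -0.16 and -0.22 at 4, 6, 8 and 12 weeks, and whether these sizes differ was not tested. In the same order let-7a-1-3p itself gave -0.07, -0.47, -0.20 and -0.36, and let-7a-5p gave 0.42, 0.05, -0.03 and -0.15. On these scaled levels the gap at 4 weeks lay mostly in the guide and that at 6 weeks mostly in the passenger. The median difference over all 273 miRNAs was 0.17 at 4 weeks and 0.01 at 6 weeks. How the gap at 4 weeks splits between the arms thus depends on the level taken as unchanged. Without smoke arrays 2 and 3 of 4 weeks the averaged gap was -0.26 (permutation test, adjusted p = 0.000520).

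**Figure D3:**
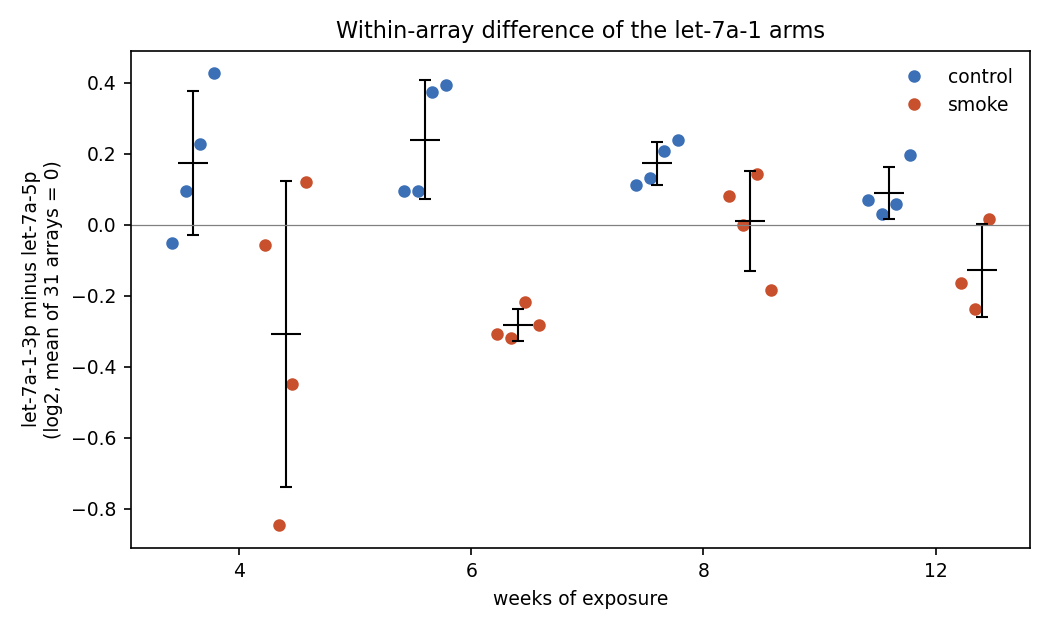
Difference of the let-7a-1 arms, log2 of let-7a-1-3p minus log2 of let-7a-5p, relative to the mean of the 31 arrays (y axis), for each control and smoke array by weeks of exposure (x axis), with group mean and SD. The smoke means lie below the control means at all 4 durations, and the groups do not overlap at 6 and at 12 weeks.

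This result for let-7a-1 held in direction but not in every setting. It was lost with quantile scaling (-0.20, adjusted p = 0.0524), with the mean of all probes (-0.15, 0.0956), in the authors' deposited table (-0.17, 0.0739) and with normexp (-0.43, 0.167), all by permutation test. Leaving out each array in turn gave -0.38 to -0.30, with adjusted p up to 0.000320.

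Of the other pairs, let-7f-1-3p fell relative to let-7f-5p by 0.21 (permutation test, p = 0.00166, adjusted p = 0.00332, 12 of 15 slide pairs lower). On the 15 arrays where let-7f-1-3p lay at the floor this difference holds only the level of the guide, and the call was lost without scaling (-0.08, adjusted p = 0.567) and in 4 other settings. let-7f-5p is also made from a further hairpin, so its signal is not that of Mirlet7f-1 alone. For let-7d the difference was -0.16 (adjusted p = 0.401) and for let-7b 0.01 (adjusted p = 0.904), with 9 of 15 slide pairs lower in each.

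How a signal followed the brightness of its array was described after the data had been seen. On log2 axes the unscaled signal of let-7a-1-3p rose with the array's 75th percentile with a slope of 0.805, near the median slope of 0.864 over the 207 miRNAs detected on every array. For let-7d-3p the slope was 0.297, for let-7b-3p 0.289 and for let-7f-1-3p 0.088. Of the 207 miRNAs 1 had a slope below that of let-7d-3p, and the 5th percentile was 0.502. The guides had slopes of 0.670 to 1.04.

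The slopes were also taken for each probe of a member that was detected on some array. For let-7a-1-3p the brightest probe had 0.805 and the second, detected on 1 array, 0.613. For let-7d-3p the 3 probes detected on some array had 0.297, 0.331 and 0.476, for let-7b-3p all 4 had 0.209 to 0.289, and for let-7f-1-3p all 4 had 0.0024 to 0.088. A slope below 1 means that the level after division by the 75th percentile is lower on brighter arrays. What the slopes come from was not tested.

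**Figure D4:**
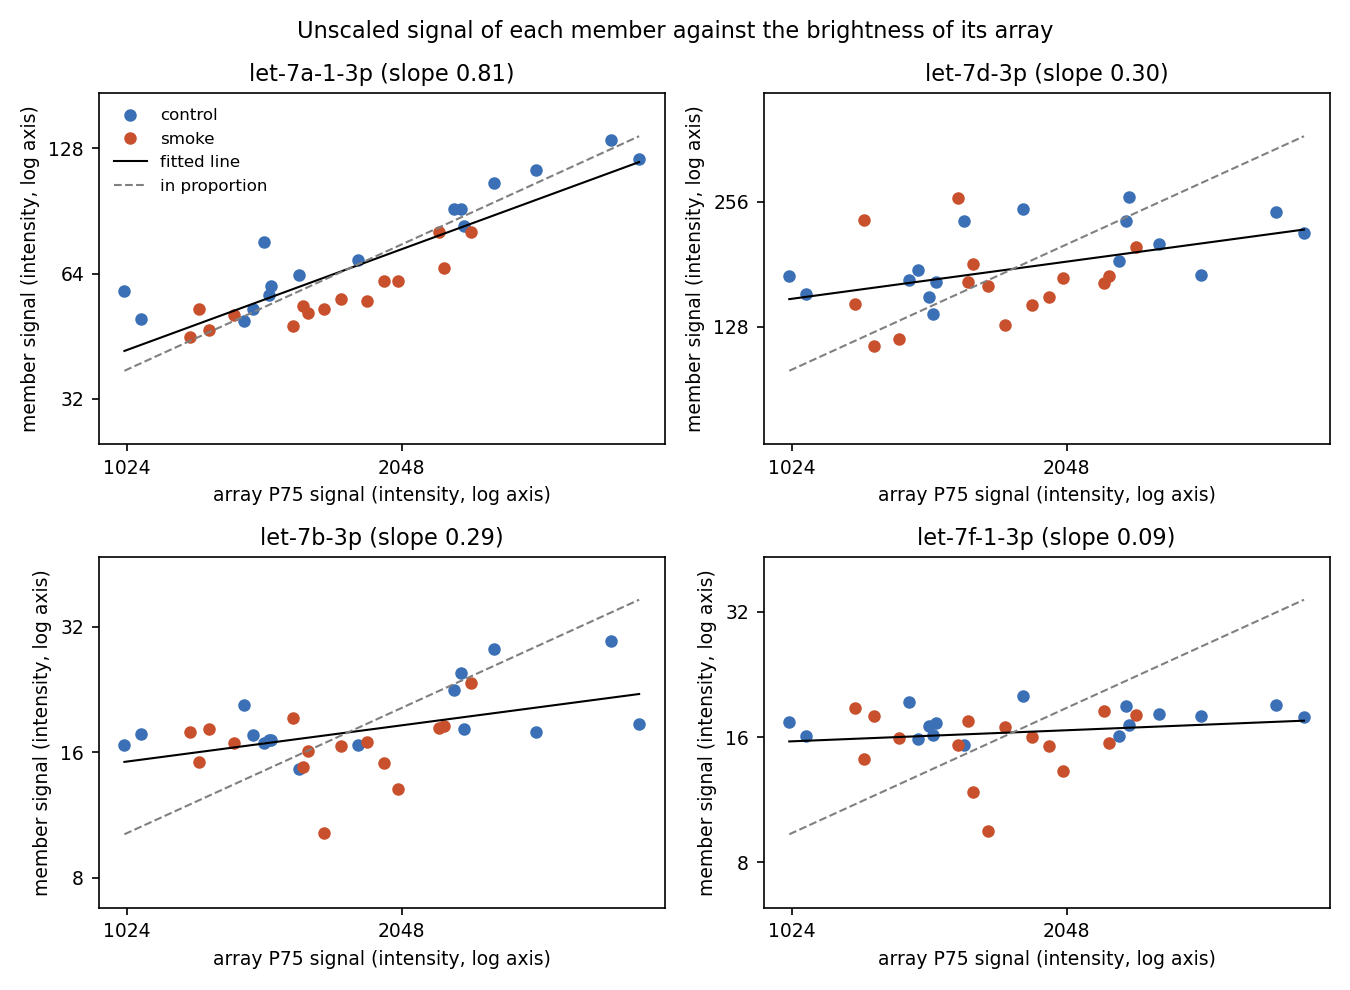
Unscaled signal of each passenger arm's brightest probe (y axis, intensity, log axis) against the 75th percentile of its array (x axis, intensity, log axis) for 16 control and 15 smoke arrays, with the fitted line and a dashed line of proportional signal. let-7a-1-3p lies near the dashed line (slope 0.805), and let-7d-3p, let-7b-3p and let-7f-1-3p are flatter (0.297, 0.289 and 0.088).

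With brightness as a covariate, an alternative added after the data had been seen, all 4 averaged differences were more negative. They were -0.32 for let-7a-1-3p (limma, adjusted p = 1.18e-05), -0.19 for let-7d-3p (0.103), -0.16 for let-7b-3p (0.0283) and -0.15 for let-7f-1-3p (0.0180). The count of miRNAs called rose from 75 to 113 of 273 in the same fit. At 8 weeks, where brightness and group go together, let-7a-1-3p then passed as well (-0.45, adjusted p = 0.00210, limma). So did let-7b-3p (-0.35, adjusted p = 0.0308) and let-7f-1-3p (-0.26, adjusted p = 0.0484), the latter with no smoke array above background. In that fit 121 of 273 miRNAs were called at 8 weeks, 99 of them lower, and the median difference was -0.17.

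The miRNAs most like a member over the 31 arrays were named for the 2 members detected on every array, by Pearson's r of the scaled levels against 206 others. For let-7a-1-3p they were miR-181a-1-3p (r = 0.86), miR-455-3p (0.83) and miR-30e-3p (0.77), beside a median r of 0.22. Both miR-181a-1-3p (-0.29 ± 0.079, adjusted p = 0.00651) and miR-455-3p (-0.45 ± 0.10, adjusted p = 0.00107) were called lower in smoke by limma, beside 12.1% of all miRNAs. miR-30e-3p was not (-0.10, adjusted p = 0.399). These 3 were picked by correlation over the same smoke and control arrays, so their falls are not separate evidence for that of let-7a-1-3p. The slopes of the 3 on array brightness were 0.813, 0.519 and 0.664, beside 0.805 for let-7a-1-3p itself and a median slope of 0.864.

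For let-7d-3p the nearest were miR-151-3p (r = 0.88), miR-328-3p (0.83) and miR-1895 (0.80), beside a median of 0.096. Their slopes on array brightness were 0.562, 0.384 and 0.601, beside 0.297 for let-7d-3p itself and the median slope of 0.864. All of these correlations run over the same 31 arrays and share their scaling and groups. Between members, let-7a-1-3p and let-7d-3p had r = 0.42. The dim members let-7b-3p and let-7f-1-3p, partly at the floor, had r of 0.57 and 0.60 with let-7a-1-3p and 0.59 and 0.56 with let-7d-3p. let-7a-1-3p had r = 0.35 with its guide let-7a-5p and -0.75 (let-7i-5p) to 0.55 (let-7b-5p) over all guides. let-7d-3p had r = 0.37 with let-7d-5p and -0.20 to 0.43 over all guides. Among themselves the guides had a median r of 0.86 and a lowest r of -0.11.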

How the data were processed

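The members and lists were chosen with earlier results of these data known. Per the file headers, Feature Extraction 10.7.3.1 gave each spot an intensity after subtracting the background and a spatial trend; arrays were not normalized to each other. The deposited series table was read as log2 values that the authors normalized, by a method the sources used here do not name. Its array medians are 2.71 to 2.85, and its arrays correlate with the scaled scanner values at 0.981 to 0.986.

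Of 13715 spots per array 13000 were not controls. Outlier spots (297 to 655 per array) were dropped and the spots of a probe averaged. Arrays were divided by their 75th percentile over 385 probes, floored at log2 -6.74 and put on the log2 scale, and the brightest probe stood for a miRNA. miRNAs detected on at least 75% of the arrays of a group were tested with limma 3.58.1 (R 4.3.3), 1 mean per group, 23 residual degrees of freedom, Benjamini-Hochberg over 273 miRNAs, threshold 0.05. The steps were tested on simulated data. The number of arrays limits the precision. Named were the members, their guides, at most 6 other let-7 entries, and the 3 miRNAs most correlated with each member detected on every array. Alternatives changed the scaling, floor, filter, probe summary, detection mark, background correction, source table, blocks and arrays. Normexp on median signals (the files hold no mean signals) and the brightness covariate were added after the data had been seen. No 2 arrays were identical.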

Additional observations from a re-analysis of the deposited data

Results flagged for a closer look

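In 27 groups of 4 arrays whose values of a member were not all equal, the gap between the most extreme array and its neighbour was compared with the group's range, and 4 groups exceeded Dixon's critical value, where chance gives about 1 in 20. For let-7a-1-3p, smoke array 2 of 6 weeks was the lowest of its group at -5.11, next to -5.00 (ratio 0.846). For let-7d-3p, control array 4 of 4 weeks was the lowest at -4.08, next to -3.05 (ratio 0.868), and smoke array 1 of 6 weeks the highest at -3.16, next to -3.69 (ratio 0.885). For let-7f-1-3p, smoke array 3 of 6 weeks was the only one of its group above the floor, at -6.70 (ratio 1). With the other 3 values set to the floor that ratio follows from the floor, and the chance rate does not apply to groups with values at the floor.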

How the results depend on the processing

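The fall of let-7a-1-3p averaged over durations kept its direction in every setting run and was called in 12 of 14 settings and with each of 31 arrays left out; the rest of the members' averaged differences were negative throughout. The cause of the changes below was not tested.

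With array brightness as a covariate, added after the data had been seen, calls numbered 113 averaged and 44, 121 and 41 at 6, 8 and 12 weeks; the F between durations was 3.55 for let-7a-1-3p, which had -0.45 at 8 weeks; let-7b-3p had -0.16 averaged and -0.35 at 8 weeks, and let-7f-1-3p -0.15 averaged, -0.30 at 6 and -0.26 at 8 weeks. Without scaling, where the median miRNA was at -0.86 at 8 weeks, calls numbered 29 averaged and 4, 2, 202 and 6 at 4, 6, 8 and 12 weeks. let-7a-1-3p then had an F among controls of 5.08, -0.48 at 6 and -1.02 at 8 weeks. let-7b-3p had F of 10.9 among controls and 7.44 between durations and -0.68 at 8 weeks, let-7d-3p had -0.094 at 8 weeks, and let-7f-1-3p had -0.18 at 8 weeks and -0.084 against its guide.

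With normexp, also added after the data had been seen, calls numbered 12 averaged and 46, 4, 3 and 4 by duration. let-7a-1-3p had -0.34 averaged, -0.25 at 6 and 0.22 at 8 weeks and -0.43 against its guide. let-7b-3p had -1.13 at 4 and 0.015 at 6 weeks and -0.13 against its guide, and let-7f-1-3p had -1.16 at 4 weeks and -0.35 against its guide. With a floor 4 times higher calls numbered 45 averaged and 63, 13, 18 and 15 by duration, let-7a-1-3p had -0.11 averaged and -0.27 at 6 weeks, and let-7b-3p and let-7f-1-3p lay at the floor on every array and gave no value.

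In the authors' deposited table calls numbered 52 at 8 and 47 at 12 weeks, let-7a-1-3p had -0.17 and let-7f-1-3p -0.10 against their guides, let-7b-3p had -0.031 at 8 weeks and let-7d-3p an F between durations of 5.39. With quantile scaling 45 were called at 12 weeks, and let-7a-1-3p had -0.20 and let-7f-1-3p -0.13 against their guides. Scaled by all probes, 61 were called at 4 weeks, let-7d-3p had 0.75 at 8 weeks and an F between durations of 6.61, and let-7f-1-3p had -0.024 at 4 weeks. With the scanner's summed signal 60 were called at 8 weeks, let-7b-3p had -0.0091 at 4 and -0.58 at 8 weeks and -0.18 against its guide, and let-7f-1-3p -0.0091 at 8 weeks and -0.22 against its guide. With the mean of all probes let-7a-1-3p had -0.15 and let-7b-3p -0.010 against their guides.

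With only 1 duration fitted, 18 were called at 4 and 93 at 12 weeks, and let-7a-1-3p had -0.47 at 6 weeks (adjusted p = 0.224, limma). Without the detection filter 56 were called at 4 weeks, and that value was -0.47 (adjusted p = 0.0702, limma). Without smoke arrays 2 and 3 of 4 weeks, 17 were called at 4 and 46 at 12 weeks, and let-7b-3p had -0.26 and let-7f-1-3p -0.27 at 4 weeks. With the more lenient mark of positive and significant spots let-7f-1-3p was detected on 31 arrays.

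Leaving out each array in turn gave -0.61 to -0.33 for let-7a-1-3p at 6 weeks, -0.053 to 0.20 for let-7b-3p and -0.069 to 0.18 for let-7f-1-3p at 4 weeks, -0.024 to 0.042 for let-7b-3p against its guide, and an F between durations of 2.72 to 5.80 for let-7d-3p. Calls at 4 weeks ranged from 37 to 150, with 43 without control array 4, 40 without smoke array 2 and 37 without smoke array 3.

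The deviations of same-numbered smoke and control arrays correlated above 0.1 in 9 of 15 pairs (-0.47 to 0.54), not in every pair, so the numbers were not taken to pair the samples, although the number equals the slide on 27 of 31 arrays. With the replicate block let-7a-1-3p had -0.27 averaged (adjusted p = 0.00272) and -0.47 at 6 weeks (adjusted p = 0.0190, limma), and calls numbered 71 averaged and 90, 22, 28 and 22 by duration, against 75, 108, 22, 30 and 26 without it. Signal over background limits let-7b-3p and let-7f-1-3p, and every difference of let-7f-1-3p at 8 weeks rests on smoke arrays not above background. The listed normexp on mean signals was not run.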
